A study of Mus musculus with 15 samples.

Results

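The 40 genes described here cover the path of glucose through a mouse CD4 T cell and its answer to low oxygen. They were taken from a list of mouse symbols made up of 2 glucose carriers, 17 glycolytic enzymes, 2 enzymes that set fructose-2,6-bisphosphate, 2 lactate carriers, 3 kinases of pyruvate dehydrogenase, 2 HIF factors, 3 genes of HIF degradation and 9 hypoxia targets. The choice used the symbols alone, though it was made with earlier results of these data known. All 40 were among the 27179 genes of the count table, Ero1l under its current symbol Ero1a, and all 40 passed the filter on low counts, as did 12591 genes in all.

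RNA was measured in 15 libraries, 5 each of cells cultured under conditions labelled Tfh, Th17 and Th1. All came from naive CD4 T cells of the genotype B6.Cg-Ifngtm3.1Lky-Il17atm1.1Lky, whose altered Ifng and Il17a alleles are cytokine reporters by their names, and which all 3 conditions share. The cells were kept for 3.5 days on plate-bound antibodies to CD3 and CD28, sorted by flow cytometry into Trizol LS, and 100 ng of RNA went into each library. The design text gives the sort as CXCR5+ and IL-17A- for Tfh cells and as IFNg+ for Th1 cells. The gate of the Th17 cells, the added cytokines, the age of the mice and the oxygen and glucose of the cultures were not stated in the sources used here. These are cultured CD4 T cells. Whether a condition's 5 libraries stem from different mice or cultures is not labelled. The p-values therefore speak only of how far these samples spread, which can be technical.

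Glycolysis turns glucose into pyruvate through a chain of cytosolic enzymes, most of which exist as isozymes from separate genes, and lactate dehydrogenase turns pyruvate into lactate, which leaves the cell through monocarboxylate carriers. Activated T cells are known to raise glucose uptake and lactate output even when oxygen is plentiful. The transcription factor HIF-1 drives many of these genes. Its alpha subunit is hydroxylated by EGLN enzymes when oxygen is present, then bound by VHL and destroyed, so that HIF targets report on the protein's activity more directly than the level of Hif1a mRNA does.

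The shallowest library was Tfh replicate 1 with 4.87 M counts and the deepest Th1 replicate 3 with 25.2 M (M for a 1 followed by 6 zeros). Levels are counts per 1 M (CPM) on TMM-scaled library sizes, each given as the mean ± SD of 5 libraries or for replicates 1 to 5 in turn. The 10 genes that mark CD4 T cells summed to 8305 to 10789 CPM in Tfh, 7281 to 8441 CPM in Th17 and 4845 to 6458 CPM in Th1 libraries, with none at 0. Cxcr5 had a median of 167 CPM in Tfh, 40.9 CPM in Th17 and 11.1 CPM in Th1 libraries. Il17a had a median of 17.3 CPM in Tfh, 229.9 CPM in Th17 and 0 CPM in Th1 libraries, and Ifng a median of 0.299 CPM in Tfh, 0.351 CPM in Th17 and 775 CPM in Th1 libraries.

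Tfh cells held the lowest levels of this pathway. Tfh had the lowest mean of the 3 conditions for 33 of the 40 genes, Th1 had the highest mean for 22 and Th17 for 16. Against Th17, 27 members were lower in Tfh and 2 higher at an edgeR adjusted p under 0.05, when 9.98% of all genes tested were called lower and 6.80% higher. Against Th1, 30 members were lower in Tfh and 2 higher, when 25.2% of all genes were called lower and 24.1% higher. Between Th17 and Th1 the members divided, with 10 lower and 6 higher in Th17, when 17.8% of all genes were called lower and 19.0% higher. The median log2 fold change of the members was -0.99 for Tfh over Th17, -0.95 for Tfh over Th1 and -0.11 for Th17 over Th1, and over all genes tested it was -0.01, -0.01 and 0.03. The 3 comparisons share their libraries, so they are not independent of each other.

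Separation between the libraries was frequent in Tfh. All 5 Tfh libraries lay below all 5 Th17 libraries for 26 members, against 8.72% of all genes, and below all 5 Th1 libraries for 24 members, against 18.2% of all genes. All 5 Th17 libraries lay below all 5 Th1 libraries for 9 members, against 14.3% of all genes. A called difference of at least 2-fold was found for 19 members lower in Tfh than Th17 (4.41% of all genes), for 17 lower in Tfh than Th1 (15.1%) and for 5 lower in Th17 than Th1 (10.4%). In bulk RNA, fewer cells that express a gene and less RNA per cell cannot be told apart. Genes of cell division also differed between the conditions. Of 26 proliferation genes, 24 were lower and 0 higher in Tfh than Th17, with a median log2 fold change of -1.08, when 9.98% of all genes were called lower. Against Th1, 18 were lower and 3 higher in Tfh, with a median of -0.69, when 25.2% of all genes were called lower. Their summed level was 3776 to 5047 CPM in Tfh, 7418 to 8662 CPM in Th17 and 5753 to 6735 CPM in Th1, and their part in the glycolytic differences was not tested.

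The promoters of 6 members show what the letters of the hypoxia response look like at genes called in opposite directions between Tfh and Th17. They were chosen after their values were seen. P4ha2, Hk2, Bnip3 and Ldha were lower in Tfh than in both other conditions, and Ldhb and Eno2 were the only members called higher in Tfh than Th17. The call of Eno2 was lost with limma-voom (adjusted p = 0.0812) and when some single libraries were left out. For Tfh over Th1, Eno2 had a log2 fold change of -0.01 without a call. Each sequence runs 5′ to 3′ from 250 bases before to 50 bases after a start site in RefSeq on GRCm38.p6. Capitals mark the core letters that HIF factors bind, on either strand. These are ACGTG, seen as CACGT where it lies on the other strand, and the variant that starts with G, which is GCGTG and is seen as CACGC in the other direction. The E-box, spelled CACGTG, holds the core on both strands and is counted as 2 matches.
P4ha2 promoter (chr11:54100674-54100973, plus strand): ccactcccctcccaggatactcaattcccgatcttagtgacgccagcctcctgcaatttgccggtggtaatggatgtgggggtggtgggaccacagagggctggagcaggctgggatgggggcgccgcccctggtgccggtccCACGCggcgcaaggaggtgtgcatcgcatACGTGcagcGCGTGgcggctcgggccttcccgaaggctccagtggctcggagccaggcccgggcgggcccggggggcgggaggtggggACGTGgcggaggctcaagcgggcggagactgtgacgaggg
Hk2 promoter (chr6:82774405-82774704, minus strand): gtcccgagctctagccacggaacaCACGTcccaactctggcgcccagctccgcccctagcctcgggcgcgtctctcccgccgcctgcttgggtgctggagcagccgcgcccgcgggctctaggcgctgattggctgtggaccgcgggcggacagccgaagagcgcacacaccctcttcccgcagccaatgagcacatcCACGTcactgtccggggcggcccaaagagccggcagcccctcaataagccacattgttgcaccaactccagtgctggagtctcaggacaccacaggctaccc
Bnip3 promoter (chr7:138909457-138909756, minus strand): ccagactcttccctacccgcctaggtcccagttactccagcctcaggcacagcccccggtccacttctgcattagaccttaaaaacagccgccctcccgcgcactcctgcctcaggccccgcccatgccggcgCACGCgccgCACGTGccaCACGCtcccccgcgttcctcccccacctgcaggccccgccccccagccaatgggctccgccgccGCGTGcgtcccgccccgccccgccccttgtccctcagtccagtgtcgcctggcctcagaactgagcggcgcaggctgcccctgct
Ldha promoter (chr7:46845554-46845853, plus strand): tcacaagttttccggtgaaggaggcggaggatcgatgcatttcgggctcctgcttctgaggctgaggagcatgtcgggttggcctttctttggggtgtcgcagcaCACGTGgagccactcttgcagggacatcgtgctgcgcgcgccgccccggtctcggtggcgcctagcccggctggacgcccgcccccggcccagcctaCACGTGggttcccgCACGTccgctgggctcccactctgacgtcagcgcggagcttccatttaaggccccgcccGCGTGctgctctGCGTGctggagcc
Ldhb promoter (chr6:142507908-142508207, minus strand): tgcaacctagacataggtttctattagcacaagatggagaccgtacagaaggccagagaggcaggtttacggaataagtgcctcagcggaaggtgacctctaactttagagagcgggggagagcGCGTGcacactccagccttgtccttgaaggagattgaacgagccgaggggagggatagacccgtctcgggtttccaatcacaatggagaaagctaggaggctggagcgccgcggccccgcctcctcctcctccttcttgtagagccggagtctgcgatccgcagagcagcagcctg
Eno2 promoter (chr6:124769624-124769923, minus strand): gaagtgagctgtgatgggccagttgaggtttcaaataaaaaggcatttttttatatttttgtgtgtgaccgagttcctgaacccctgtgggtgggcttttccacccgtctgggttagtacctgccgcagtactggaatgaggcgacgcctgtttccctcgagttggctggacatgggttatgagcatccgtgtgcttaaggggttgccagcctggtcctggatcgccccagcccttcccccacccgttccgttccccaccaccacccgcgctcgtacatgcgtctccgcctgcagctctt
The core was found 4 times for P4ha2, 2 times for Hk2, 5 times for Bnip3, 7 times for Ldha, 1 time for Ldhb and 0 times for Eno2. Ldha has 2 windows in the RefSeq table, of which the upstream one is shown, and the other holds the core 2 times. Other members do not share this order. Tpi1, lower in Tfh than both others, had 0 matches, and the 2 windows of Pfkfb3, higher in Tfh than Th1, had 1 and 4. Over the 37 members with a window, the core was in 41 of 52 windows (78.8%), against 62.3% of the 12270 windows of genes tested and 43.8% of the 32851 windows of all genes. Some windows of Eno1, Aldoa and Pfkm overlap each other, so the windows are not all separate. The members were listed partly as hypoxia targets, so their share describes the list and not these libraries. Mean GC content was 62.4% for the members, 60.6% for genes tested and 53.8% for all genes. No window matched Slc2a3, Epas1 or Ndrg1. A match is a run of letters and not a measured binding site, and a link between matches and levels was not tested.

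The mRNAs of both glucose carriers were lower in Tfh. Slc2a1, which encodes the widely used glucose carrier GLUT1, had 28.6, 47.9, 45.3, 61.5 and 39.02 CPM in Tfh. The Th17 libraries held 107, 119, 128, 157 and 130.3 CPM and the Th1 libraries 82.97, 118, 181, 174 and 102 CPM. Every Tfh library lay below every other library, and Th17 and Th1 overlapped. It was 2.88-fold lower (log2 fold change -1.53 ± 0.22, edgeR adjusted p = 0.000106) in Tfh than Th17 and 2.95-fold lower (log2 fold change -1.56 ± 0.22, edgeR adjusted p = 1.13e-05) in Tfh than Th1. Slc2a3, which encodes the high-affinity carrier GLUT3, had 7.54, 22.04, 18.6, 16.2 and 15.02 CPM in Tfh. Levels were 41.8, 91.02, 49.8, 78.4 and 48.1 CPM in Th17 and 116, 188, 173, 167 and 116 CPM in Th1. The 3 conditions did not overlap for Slc2a3. It was 3.86-fold lower (log2 fold change -1.95 ± 0.26, edgeR adjusted p = 5.18e-05) in Tfh than Th17, 9.51-fold lower (log2 fold change -3.25 ± 0.27, edgeR adjusted p = 1.52e-08) in Tfh than Th1 and 2.46-fold lower (log2 fold change -1.30 ± 0.25, edgeR adjusted p = 0.000469) in Th17 than Th1.

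Because a ratio of 2 genes within a library does not move with library scaling, isozymes of a step were also compared as log2 ratios of counts, with two-sided exact permutation tests over 5 against 5 libraries and p-values adjusted over 42 tests (14 pairs and 3 comparisons). The smallest p this design allows is 0.00794. The log2 ratio of Slc2a3 to Slc2a1 was -1.91, -1.12, -1.28, -1.92 and -1.37 in Tfh, -1.35, -0.39, -1.37, -1.0 and -1.44 in Th17, and 0.49, 0.68, -0.07, -0.05 and 0.19 in Th1. Every Tfh and every Th17 library lay below every Th1 library in this ratio. The ratio differed by -1.77 (exact permutation p = 0.00794, adjusted p = 0.0175) between Tfh and Th1 and by -1.36 (exact permutation p = 0.00794, adjusted p = 0.0175) between Th17 and Th1. Between Tfh and Th17 the difference of -0.41 missed the threshold (exact permutation p = 0.167, adjusted p = 0.212).

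Hexokinase traps glucose in the cell by phosphorylation, and its inducible isozyme separated all 3 conditions. Hk2, the inducible isozyme, had 17.01, 17.7, 12.7, 10.3 and 8.89 CPM in Tfh. The 5 Th17 libraries had 54.6, 52.6, 58.2, 59.8 and 59.7 CPM, and the 5 Th1 libraries 104, 114, 88.5, 104 and 120.1 CPM. The order Tfh, Th17, Th1 held for every library of the 3 conditions. Hk2 was 4.32-fold lower (log2 fold change -2.11 ± 0.18, edgeR adjusted p = 3.41e-07) in Tfh than Th17, 8.05-fold lower (log2 fold change -3.01 ± 0.18, edgeR adjusted p = 1.4e-10) in Tfh than Th1 and 1.86-fold lower (log2 fold change -0.90 ± 0.17, edgeR adjusted p = 0.000308) in Th17 than Th1. Hk1, the isozyme found in most tissues, averaged 138 ± 17.9 CPM in Tfh, 191 ± 37.1 CPM in Th17 and 195 ± 43.9 CPM in Th1. It was 1.39-fold lower in Tfh than Th17 with an edgeR adjusted p of 0.0526, which missed the threshold, and 1.42-fold lower (log2 fold change -0.51 ± 0.16, edgeR adjusted p = 0.0151) in Tfh than Th1. Hk1 was called lower in Tfh than Th17 without Th1 replicate 1, Th1 replicate 4 or Tfh replicate 4, with edgeR adjusted p between 0.0275 and 0.04935. Hk2 to Hk1 as a log2 ratio stood at -2.96, -2.68, -3.45, -3.99 and -3.94 in Tfh, -1.66, -1.77, -1.61, -2.10 and -1.51 in Th17, and -0.41, -0.65, -1.38, -1.25 and -0.59 in Th1. The Tfh libraries were the lowest, with a difference of -1.67 (exact permutation p = 0.00794, adjusted p = 0.0175) from Th17 and -2.55 (exact permutation p = 0.00794, adjusted p = 0.0175) from Th1. Per kb of exon, Hk1 stood at 28.3 CPM per kb in Tfh, 39.5 in Th17 and 40.3 in Th1, and Hk2 at 2.37 CPM per kb in Tfh, 10.1 in Th17 and 18.9 in Th1.

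Phosphofructokinase commits sugar to glycolysis, and its 3 subunits each took a course of their own. Pfkp, the platelet type, had 234, 204, 207, 198 and 221 CPM in Tfh. Against this stood 299, 275, 309.8, 302 and 274 CPM in Th17 and 373, 420.4, 376, 369.8 and 362 CPM in Th1. No library of one condition reached the range of another. Pfkp was 1.37-fold lower (log2 fold change -0.46 ± 0.10, edgeR adjusted p = 0.00292) in Tfh than Th17, 1.79-fold lower (log2 fold change -0.84 ± 0.10, edgeR adjusted p = 9.84e-07) in Tfh than Th1 and 1.303-fold lower (log2 fold change -0.38 ± 0.10, edgeR adjusted p = 0.00437) in Th17 than Th1. Pfkl, the liver type, was highest in Th17, with 65.6 ± 27.1 CPM in Tfh, 103 ± 19.9 CPM in Th17 and 68.2 ± 12.03 CPM in Th1, and Tfh replicate 1 at 113 CPM lay far above the other Tfh libraries. Its calls, -0.65 ± 0.22 for Tfh over Th17 (edgeR adjusted p = 0.0464) and 0.59 ± 0.22 for Th17 over Th1 (edgeR adjusted p = 0.0389) as log2 fold changes, were weak. The first was lost with RLE factors (adjusted p = 0.0618), library sizes alone (adjusted p = 0.0762), the strict filter (adjusted p = 0.0564) and the fit to the 2 conditions (adjusted p = 0.0543). It was also lost when any library but Th1 replicate 1, Th17 replicates 1 and 2 and Tfh replicate 1 was left out, with adjusted p up to 0.130. The second was lost with RLE factors (adjusted p = 0.0661), the strict filter (adjusted p = 0.0655) and DESeq2 (adjusted p = 0.0502). It was also lost without Th1 replicates 1, 2 or 5, Th17 replicates 3, 4 or 5, or Tfh replicates 2 or 3, with adjusted p up to 0.114. Pfkm, the muscle type, averaged 20.2 ± 2.66 CPM in Tfh, 18.9 ± 2.23 CPM in Th17 and 34.8 ± 8.84 CPM in Th1, and was 1.73-fold lower (log2 fold change -0.79 ± 0.18, edgeR adjusted p = 0.00158) in Tfh than Th1 and 1.84-fold lower (log2 fold change -0.88 ± 0.18, edgeR adjusted p = 0.000851) in Th17 than Th1. Gpi1, the isomerase between hexokinase and phosphofructokinase, was 1.46-fold lower (log2 fold change -0.54 ± 0.18, edgeR adjusted p = 0.0161) in Tfh than Th1 and was not called in the other comparisons.

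Fructose-2,6-bisphosphate, made by the PFKFB enzymes, activates phosphofructokinase. Pfkfb3 went against the pathway, with 117, 164, 136, 172 and 164 CPM in Tfh. In Th17 it had 127, 146, 139, 166 and 141 CPM, and in Th1 74.004, 102, 121, 115 and 91.7 CPM. The Tfh and Th17 libraries overlapped, and 4 of the 5 Th1 libraries lay below every Tfh library. It was 1.49-fold higher (log2 fold change 0.58 ± 0.15, edgeR adjusted p = 0.0032) in Tfh than Th1 and 1.43-fold higher (log2 fold change 0.51 ± 0.15, edgeR adjusted p = 0.0102) in Th17 than Th1, while Tfh over Th17 gave a log2 fold change of 0.07 ± 0.15 with a 95% interval of -0.22 to 0.35. Pfkfb4 averaged 6.06 ± 3.61 CPM in Tfh, 8.03 ± 1.56 CPM in Th17 and 8.18 ± 2.38 CPM in Th1 and was not called in any comparison, with intervals as wide as -1.16 to 0.31 on the log2 scale for Tfh over Th1.

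The lower pathway, from aldolase to pyruvate kinase, was carried by a few abundant genes. Aldoa, the main aldolase of these cells, had 1092, 1194, 1232, 1747 and 1096 CPM in Tfh. The Th17 libraries held 2058, 2218, 2345, 3861 and 2879 CPM and the Th1 libraries 2137, 3312, 5817, 5027 and 2821 CPM. Every Tfh library lay below every other library, though Th1 alone ranged from 2137 to 5817 CPM. It was 2.1002-fold lower (log2 fold change -1.07 ± 0.24, edgeR adjusted p = 0.00473) in Tfh than Th17 and 3.004-fold lower (log2 fold change -1.59 ± 0.25, edgeR adjusted p = 2.96e-05) in Tfh than Th1, and Th17 over Th1 was not called (edgeR adjusted p = 0.103), though it was called lower without Th1 replicate 1 (adjusted p = 0.0225) or Th17 replicate 4 (adjusted p = 0.0247). Aldoc, the brain type, was far rarer, with 22.6 ± 8.43 CPM in Tfh, 44.4 ± 12.99 CPM in Th17 and 108 ± 32.9 CPM in Th1. It was 1.97-fold lower (log2 fold change -0.98 ± 0.27, edgeR adjusted p = 0.0187) in Tfh than Th17, 4.797-fold lower (log2 fold change -2.26 ± 0.28, edgeR adjusted p = 2.31e-06) in Tfh than Th1 and 2.44-fold lower (log2 fold change -1.29 ± 0.27, edgeR adjusted p = 0.000964) in Th17 than Th1. The call between Tfh and Th17 was lost without Th17 replicate 2 (edgeR adjusted p = 0.0567) and without Tfh replicate 3 (edgeR adjusted p = 0.0501).

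Tpi1, which interconverts the triose phosphates, had 483, 383, 471, 512 and 395 CPM in Tfh. Levels were 996, 984, 1188, 1469.6 and 1275 CPM in Th17 and 655, 917, 1094, 1069 and 752 CPM in Th1. Tfh libraries lay below all others. Tpi1 was 2.63-fold lower (log2 fold change -1.40 ± 0.16, edgeR adjusted p = 8.44e-06) in Tfh than Th17 and 1.999-fold lower (log2 fold change -1.0 ± 0.16, edgeR adjusted p = 3.48e-05) in Tfh than Th1, and Th17 over Th1 missed the threshold (edgeR adjusted p = 0.0526), which it passed as higher in Th17 without Th1 replicate 3 or Th17 replicates 1 or 2 (adjusted p between 0.03602 and 0.04048). Pgk1, the kinase that makes an ATP of the pathway, averaged 50.8 ± 6.72 CPM in Tfh, 133 ± 13.7 CPM in Th17 and 163 ± 24.3 CPM in Th1, and was 2.62-fold lower (log2 fold change -1.39 ± 0.14, edgeR adjusted p = 1.81e-06) in Tfh than Th17 and 3.22-fold lower (log2 fold change -1.69 ± 0.14, edgeR adjusted p = 8.3e-09) in Tfh than Th1. Without Th1 replicate 4 it was also called lower in Th17 than Th1 (edgeR adjusted p = 0.0324). Pkm, the pyruvate kinase of proliferating cells and muscle, averaged 959 ± 84.99 CPM in Tfh, 1724 ± 229 CPM in Th17 and 1719.8 ± 308 CPM in Th1. It was 1.798-fold lower (log2 fold change -0.85 ± 0.13, edgeR adjusted p = 0.000211) in Tfh than Th17 and 1.79-fold lower (log2 fold change -0.84 ± 0.13, edgeR adjusted p = 3.57e-05) in Tfh than Th1, and did not separate Th17 from Th1 (95% interval of the log2 fold change -0.25 to 0.26).

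Reads of several members can match other genes. In 10 members more than 20% of the 50-base stretches of their transcripts also occur in another gene, with 76.4% for Mif, 68.0% for Pgk1, 59.1% for Bnip3, 58.4% for Gapdh and 49.5% for Eno1, and how the counting treated reads with several matches is not known here. The levels of these genes are therefore uncertain. Gapdh, the dehydrogenase of this pathway, stood at 4.33 CPM per kb of exon in Tfh, 9.73 in Th17 and 11.01 in Th1, beside 254, 670.3 and 509 CPM per kb for Tpi1, the step before it. Pgam1, the mutase, averaged 0.985 ± 1.06 CPM in Tfh, 2.54 ± 1.62 CPM in Th17 and 4.86 ± 1.36 CPM in Th1. It held 2, 8, 4, 28 and 3 counts in the Tfh libraries, 16, 5, 25, 36 and 55 in the Th17 and 41, 37, 148, 35 and 64 in the Th1 libraries. Gapdh was 2.23-fold lower (log2 fold change -1.16 ± 0.28, edgeR adjusted p = 0.00707) in Tfh than Th17 and 2.53-fold lower (log2 fold change -1.34 ± 0.28, edgeR adjusted p = 0.00057) in Tfh than Th1, and Pgam1 was 4.81-fold lower (log2 fold change -2.27 ± 0.62, edgeR adjusted p = 0.00567) in Tfh than Th1. Without Tfh replicate 4, which held most of the Tfh counts of Pgam1, its log2 fold change was -3.20 for Tfh over Th1, and Tfh over Th17 was called as well, at -2.28 (edgeR adjusted p = 0.0199). Without the 10 genes, 20 of 30 members were lower in Tfh than Th17 and 21 of 30 lower in Tfh than Th1. Of all genes tested, 9.98% and 25.2% were called lower in these comparisons. In addition, 17 members overlap another RefSeq gene on the genome, and the strand setting of the counting is not given.

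Enolase showed isozymes in opposite directions between Tfh and Th17. Eno1, the main form, had 223, 311, 349, 369 and 325 CPM in Tfh. The 5 Th17 libraries had 609, 668, 781, 953 and 858 CPM, and the 5 Th1 libraries 552, 729, 979, 908 and 616 CPM. All Tfh libraries lay below all others, at a level 2.45-fold lower (log2 fold change -1.29 ± 0.18, edgeR adjusted p = 5.97e-05) than Th17 and 2.399-fold lower (log2 fold change -1.26 ± 0.18, edgeR adjusted p = 9.89e-06) than Th1. Eno1b, a near copy of Eno1 whose transcript shares sequence with it and which was picked after its values were seen, was also lower in Tfh, by 2.28-fold against Th17 and 2.02-fold against Th1. Eno2, the neuronal form, had 17.01, 9.61, 13.9, 14.9 and 6.52 CPM in Tfh. Against this stood 8.08, 5.82, 6.54, 6.69 and 8.36 CPM in Th17 and 11.4, 11.6, 15.7, 12.6 and 10.7 CPM in Th1. Th17 libraries were the lowest, and 1 Tfh library lay among them. Eno2 was 1.74-fold higher (log2 fold change 0.80 ± 0.25, edgeR adjusted p = 0.0329) in Tfh than Th17 and 1.75-fold lower (log2 fold change -0.81 ± 0.25, edgeR adjusted p = 0.0147) in Th17 than Th1. For Tfh over Th1, Eno2 gave a log2 fold change of -0.01 ± 0.24 without a call (edgeR adjusted p = 0.976). Its call between Tfh and Th17 was lost with limma-voom (adjusted p = 0.0812) and when any of 6 libraries was left out, with edgeR adjusted p between 0.0570 and 0.0830. The log2 ratio of Eno2 to Eno1 was -3.71, -5.01, -4.65, -4.62 and -5.63 in Tfh, -6.23, -6.83, -6.89, -7.14 and -6.67 in Th17, and -5.60, -5.97, -5.96, -6.16 and -5.84 in Th1. Tfh lay above Th17 in every library, with a difference of 2.03 (exact permutation p = 0.00794, adjusted p = 0.0175), and Th17 lay below Th1 with a difference of -0.85 (exact permutation p = 0.00794, adjusted p = 0.0175).

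The isozymes of lactate dehydrogenase were called in opposite directions in Tfh against both other conditions. In Ldhb, 21% of the 50-base stretches also occur in another gene, so its level is uncertain. Ldha, the form that favours lactate, had 1496, 1112, 1291, 1166 and 1056 CPM in Tfh. In Th17 it had 2432, 2120.2, 2376, 1941 and 2255 CPM, and in Th1 1701, 1697, 1602, 1570.5 and 1851 CPM. The conditions did not overlap, and Th17 was the highest. Ldha was 1.82-fold lower (log2 fold change -0.86 ± 0.11, edgeR adjusted p = 3.89e-05) in Tfh than Th17, 1.38-fold lower (log2 fold change -0.46 ± 0.11, edgeR adjusted p = 0.00248) in Tfh than Th1 and 1.32-fold higher (log2 fold change 0.40 ± 0.11, edgeR adjusted p = 0.00902) in Th17 than Th1. Ldhb, the form that favours pyruvate, had 16.05, 24.01, 24.6, 21.3 and 23.9 CPM in Tfh. The Th17 libraries held 12.4, 9.74, 11.8, 9.89 and 8.89 CPM and the Th1 libraries 6.73, 14.7, 12.97, 15.96 and 14.9 CPM. Tfh replicate 1 at 16.0 CPM was the lowest Tfh library and sat close to the highest Th1 library. Ldhb was 2.09-fold higher (log2 fold change 1.06 ± 0.22, edgeR adjusted p = 0.00244) in Tfh than Th17 and 1.68-fold higher (log2 fold change 0.75 ± 0.22, edgeR adjusted p = 0.00829) in Tfh than Th1, and 1.24-fold lower in Th17 than Th1 without a call (edgeR adjusted p = 0.289). The log2 ratio of Ldhb to Ldha was -6.53, -5.53, -5.71, -5.77 and -5.46 in Tfh, -7.61, -7.76, -7.65, -7.61 and -7.98 in Th17, and -7.97, -6.85, -6.95, -6.62 and -6.95 in Th1. Tfh libraries were the highest without overlap, by 1.92 (exact permutation p = 0.00794, adjusted p = 0.0175) over Th17 and 1.26 (exact permutation p = 0.00794, adjusted p = 0.0175) over Th1. Ldha remained the abundant form, at 646 CPM per kb of exon against 16.8 for Ldhb in Tfh.

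**Figure D1:**
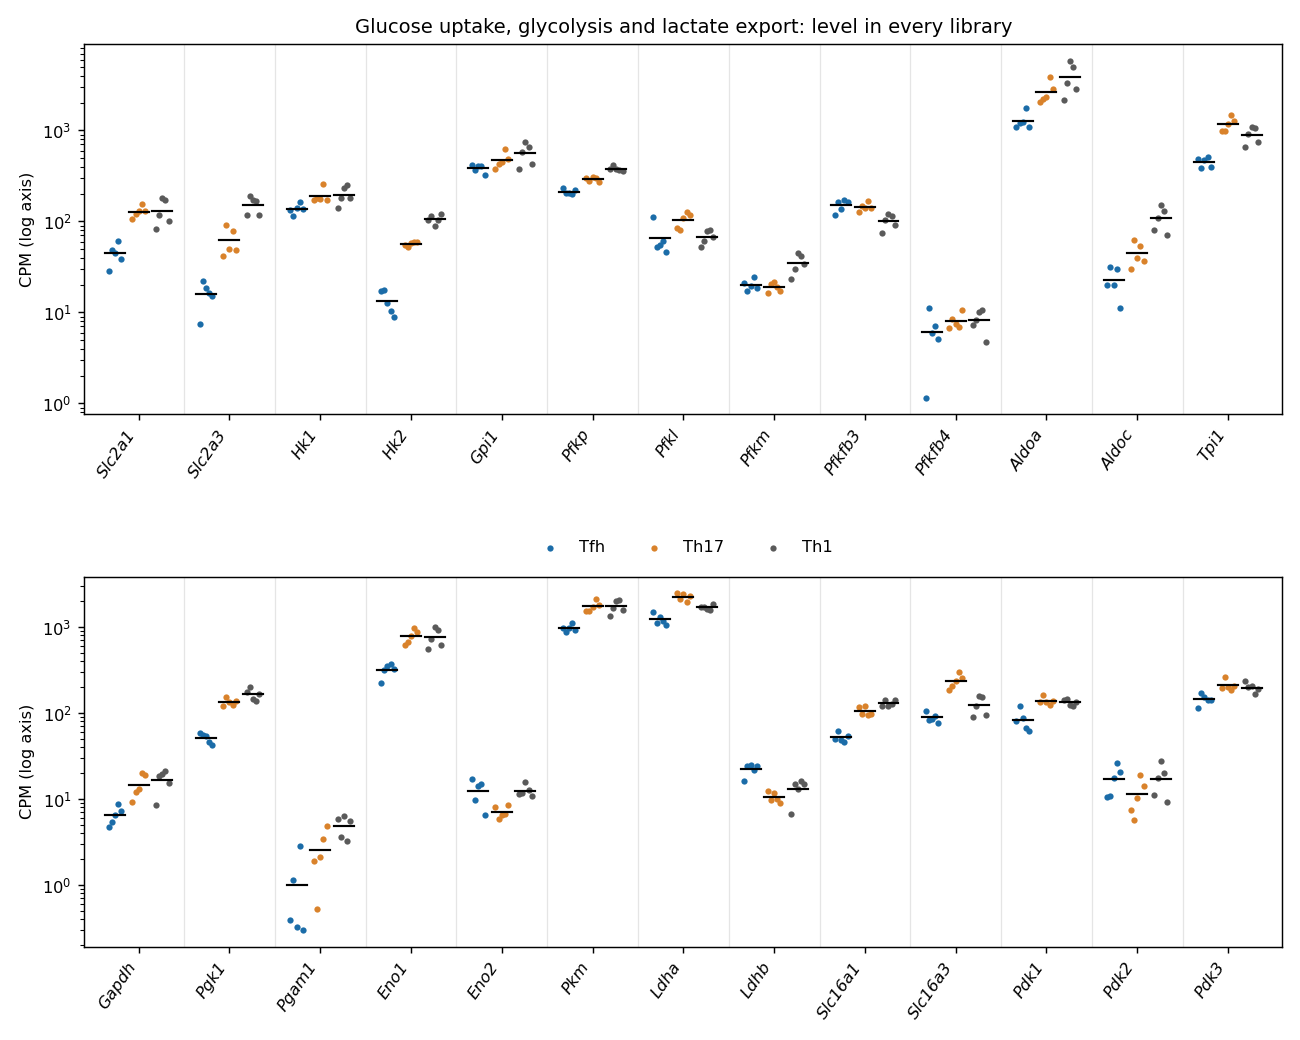
Levels of the glucose carriers, glycolytic enzymes, PFKFB enzymes, lactate carriers and pyruvate dehydrogenase kinases in CPM on a log axis, in pathway order, with a point for each of 5 libraries of Tfh, Th17 and Th1 from left to right and a black bar at the mean. Tfh points sit lowest for most genes, while Ldhb has Tfh at the top (22.0 ± 3.55 CPM in Tfh, 10.5 ± 1.49 CPM in Th17 and 13.1 ± 3.69 CPM in Th1).

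Lactate leaves through the carriers MCT1 and MCT4, and these divided the conditions. Slc16a1, the gene of MCT1, had 49.5, 61.6, 47.8, 45.6 and 54.04 CPM in Tfh. Levels were 115, 97.6, 121, 94.3 and 96.98 CPM in Th17 and 120.0, 142, 119.8, 127 and 142 CPM in Th1. Tfh libraries lay below all others, and Th17 and Th1 overlapped. Slc16a1 was 2.03-fold lower (log2 fold change -1.02 ± 0.13, edgeR adjusted p = 1.61e-05) in Tfh than Th17 and 2.52-fold lower (log2 fold change -1.33 ± 0.13, edgeR adjusted p = 6.38e-08) in Tfh than Th1. Th17 over Th1 was not called (edgeR adjusted p = 0.0548), but it was called lower when Th1 replicates 1, 3 or 4, Th17 replicate 3 or Tfh replicates 2, 3 or 5 was left out (adjusted p between 0.0234 and 0.0457). Slc16a3, the gene of the export carrier MCT4, had 104, 82.6, 84.96, 92.5 and 76.7 CPM in Tfh. The 5 Th17 libraries had 185, 205, 234, 296 and 250.2 CPM, and the 5 Th1 libraries 89.3, 121, 155, 151 and 92.98 CPM. Th17 stood above both other conditions, which overlapped. Slc16a3 was 2.66-fold lower (log2 fold change -1.41 ± 0.17, edgeR adjusted p = 1.8e-05) in Tfh than Th17 and 1.92-fold higher (log2 fold change 0.94 ± 0.17, edgeR adjusted p = 0.000251) in Th17 than Th1. It was 1.38-fold lower (log2 fold change -0.47 ± 0.17, edgeR adjusted p = 0.0302) in Tfh than Th1, a call lost with library sizes alone (adjusted p = 0.0651), without Th1 replicate 3 (adjusted p = 0.0783), without Th1 replicate 4 (adjusted p = 0.0635) and without Tfh replicate 5 (adjusted p = 0.0589). As a log2 ratio, Slc16a3 to Slc16a1 was higher in Th17 than Th1 by 1.28 (exact permutation p = 0.00794, adjusted p = 0.0175) and higher in Tfh than Th1 by 0.90 (exact permutation p = 0.00794, adjusted p = 0.0175).

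The kinases of pyruvate dehydrogenase close the entry of pyruvate into the mitochondrial cycle. Pdk1, a HIF target, had 80.6, 119.9, 86.1, 66.6 and 61.8 CPM in Tfh. Against this stood 135, 163, 134, 124 and 136 CPM in Th17 and 140.3, 144, 124, 121 and 135 CPM in Th1, and every Tfh library lay below every Th17 and Th1 library. It was 1.67-fold lower (log2 fold change -0.74 ± 0.16, edgeR adjusted p = 0.00282) in Tfh than Th17 and 1.6005-fold lower (log2 fold change -0.68 ± 0.16, edgeR adjusted p = 0.00142) in Tfh than Th1. Pdk3 averaged 143 ± 21.1 CPM in Tfh, 209.5 ± 29.8 CPM in Th17 and 196 ± 24.6 CPM in Th1, and was 1.47-fold lower (log2 fold change -0.55 ± 0.14, edgeR adjusted p = 0.00818) in Tfh than Th17 and 1.37-fold lower (log2 fold change -0.46 ± 0.14, edgeR adjusted p = 0.00915) in Tfh than Th1. Pdk2 averaged 16.9 ± 6.52 CPM in Tfh, 11.2 ± 5.297 CPM in Th17 and 17.05 ± 7.42 CPM in Th1 and passed the test in no comparison. None of the 3 was called between Th17 and Th1.

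The summed level of the 17 enzymes was 4621 to 5875 CPM in Tfh, 8802 to 11916 CPM in Th17 and 7729 to 13424 CPM in Th1 libraries. Of the 17, 11 were lower and 2 higher in Tfh than Th17, when 9.98% of all genes were called lower and 6.80% higher. Against Th1, 14 were lower and 1 higher in Tfh, when 25.2% of all genes were called lower and 24.1% higher. In Th17, 5 were lower and 2 higher than in Th1, when 17.8% of all genes were called lower and 19.0% higher. Per kb of exon, Aldoa and Ldha had the highest counted levels of the 40 genes in each condition, with 698 and 646 CPM per kb in Tfh, 1465 and 1174 in Th17, and 2096 and 889 in Th1. Levels of members that share sequence, Gapdh and Pgk1 among them, are uncertain, and so are this ranking and the summed level of the enzymes.

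**Figure D2:**
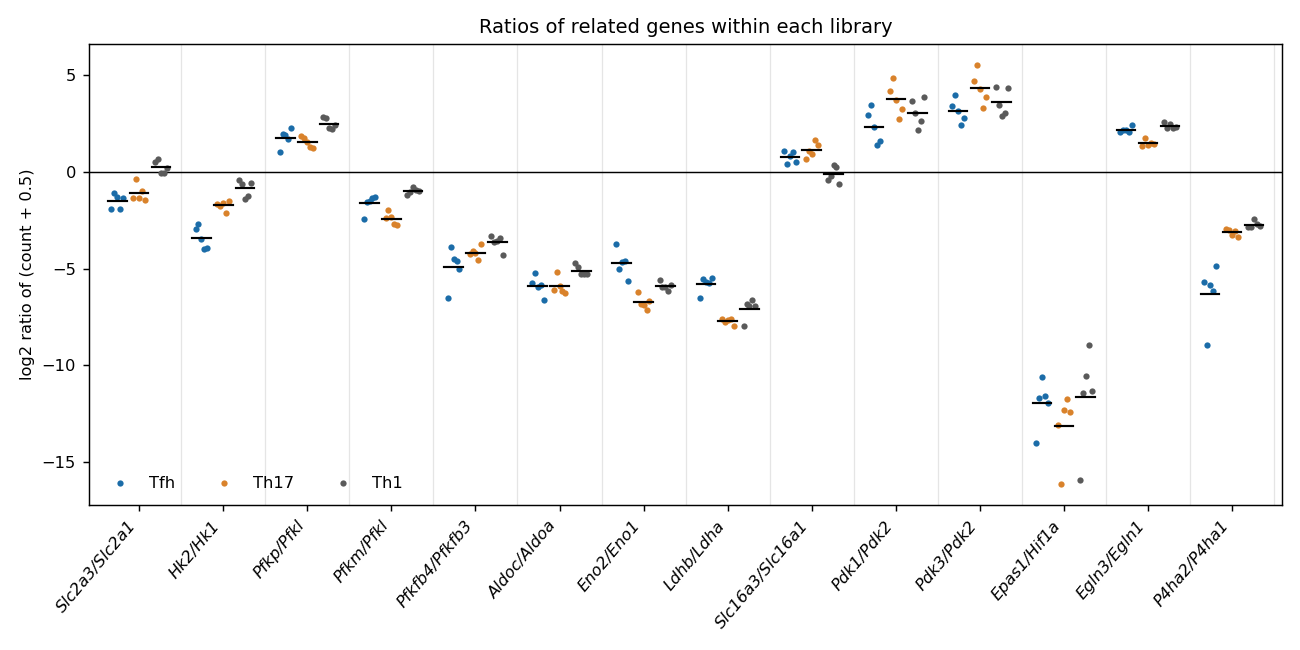
Log2 ratio of 2 isozymes or paralogues within each library for the 14 pairs, with a point per library of Tfh, Th17 and Th1 and a black bar at the mean. The mean ratios of Eno2 to Eno1 and of Ldhb to Ldha are highest in Tfh, and those of Hk2 to Hk1 and of P4ha2 to P4ha1 are lowest in Tfh.

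The HIF factors themselves were not called in the fit to all libraries. Hif1a, the oxygen-regulated subunit of HIF-1, had 1594, 2524, 1956, 1364 and 1762 CPM in Tfh. In Th17 it had 3551, 3863, 2775, 1787 and 2171 CPM, and in Th1 4373, 3025, 1723, 1765 and 2968 CPM. The conditions overlapped, and the spread within Th17 and Th1 was wide. The log2 fold change was -0.62 ± 0.25 for Tfh over Th17 (95% interval -1.12 to -0.12, edgeR adjusted p = 0.109) and -0.59 ± 0.25 for Tfh over Th1 (95% interval -1.09 to -0.09, edgeR adjusted p = 0.0631). Hif1a was called lower in Tfh than Th1 when Th1 replicate 3, Th1 replicate 4, Th17 replicate 4 or Tfh replicate 2 was left out, with edgeR adjusted p between 0.0195 and 0.0381. It was also called there with RLE factors (adjusted p = 0.0487), DESeq2 (adjusted p = 0.03297), no filter (adjusted p = 0.0436) and the strict filter (adjusted p = 0.04986), and for Tfh over Th17 in the fit to those 2 conditions alone (adjusted p = 0.0473). Epas1, the gene of HIF-2 alpha, summed to 28 counts over the 5 Tfh libraries, 18 over the Th17 and 89 over the Th1 libraries. Epas1 averaged 0.545 ± 0.456 CPM in Tfh, 0.336 ± 0.201 CPM in Th17 and 1.36 ± 1.29 CPM in Th1, where 3 counts correspond to 0.127 to 0.580 CPM in single libraries. It missed the threshold in each comparison, with 95% intervals of the log2 fold change of -1.06 to 2.53 for Tfh over Th17, -2.90 to 0.41 for Tfh over Th1 and -3.70 to -0.26 for Th17 over Th1 (edgeR adjusted p = 0.087 for the last). Without Th1 replicate 1, Epas1 was called lower in Th17 than Th1 (edgeR adjusted p = 0.03196).

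Of the genes that mark HIF alpha for destruction, the EGLN hydroxylases differed and Vhl did not pass the test. Egln1, the gene of PHD2, had 126, 147, 126, 130.1 and 103 CPM in Tfh. The Th17 libraries held 265, 258, 259.8, 247 and 247 CPM and the Th1 libraries 224, 252.02, 194, 200.3 and 174 CPM. Tfh libraries lay below all others, at a level 2.02-fold lower (log2 fold change -1.01 ± 0.12, edgeR adjusted p = 1.42e-05) than Th17 and 1.65-fold lower (log2 fold change -0.72 ± 0.12, edgeR adjusted p = 7.09e-05) than Th1. Without Th1 replicate 2 it was called higher in Th17 than Th1 (edgeR adjusted p = 0.02904). Egln3, the gene of PHD3 and itself a HIF target, had 528, 665, 571, 543 and 559 CPM in Tfh. Levels were 664, 883, 682, 684 and 672 CPM in Th17 and 1345, 1220.0, 1094, 958 and 855 CPM in Th1. Every Th1 library lay above every Tfh library, and 1 Th17 library reached into the Th1 range. Egln3 was 1.91-fold lower (log2 fold change -0.93 ± 0.13, edgeR adjusted p = 1.09e-05) in Tfh than Th1 and 1.53-fold lower (log2 fold change -0.61 ± 0.13, edgeR adjusted p = 0.0012) in Th17 than Th1, and Tfh over Th17 was not called (edgeR adjusted p = 0.105). Egln3 to Egln1 as a log2 ratio was lowest in Th17, by -0.90 (exact permutation p = 0.00794, adjusted p = 0.0175) against Th1, and Tfh lay above Th17 by 0.70 (exact permutation p = 0.00794, adjusted p = 0.0175). Vhl averaged 50.3 ± 9.09 CPM in Tfh, 64.2 ± 8.04 CPM in Th17 and 55.9 ± 3.87 CPM in Th1, with a 95% interval of -0.64 to -0.06 for the log2 fold change of Tfh over Th17.

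All 9 hypoxia targets were lower in Tfh than Th17, when 9.98% of all genes were called lower. Against Th1, 8 of the 9 were lower in Tfh, when 25.2% of all genes were called lower. Among the 9, Mif, Bnip3 and Higd1a share more than 20% of their 50-base stretches with other genes, so their levels are uncertain. The summed level of the 9 targets was 305 to 464 CPM in Tfh, 837 to 1008 CPM in Th17 and 1143 to 1571 CPM in Th1 libraries, with no overlap between conditions. Between Th17 and Th1 the targets divided, with 3 lower and 2 higher in Th17, when 17.8% of all genes were called lower and 19.0% higher.

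P4ha2 had the largest fold of any member against Th17. P4ha1 and P4ha2 encode the catalytic subunits of the prolyl hydroxylase that modifies collagen. P4ha2 had 3.09, 0.283, 2.21, 1.59 and 3.66 CPM in Tfh. The 5 Th17 libraries had 23.1, 27.3, 22.5, 22.6 and 17.3 CPM, and the 5 Th1 libraries 19.6, 24.6, 23.4, 18.6 and 17.9 CPM. Tfh libraries held 98 counts in all, and Th17 and Th1 overlapped. It was 10.3-fold lower (log2 fold change -3.37 ± 0.35, edgeR adjusted p = 3.22e-06) in Tfh than Th17 and 9.56-fold lower (log2 fold change -3.26 ± 0.34, edgeR adjusted p = 3.1e-07) in Tfh than Th1. P4ha1 had 166, 174, 130.2, 118 and 107 CPM in Tfh. Against this stood 179, 219.5, 217, 191 and 178 CPM in Th17 and 139, 176, 128, 123 and 126 CPM in Th1, with Th17 above every other library. It was 1.42-fold lower (log2 fold change -0.50 ± 0.15, edgeR adjusted p = 0.026) in Tfh than Th17 and 1.42-fold higher (log2 fold change 0.51 ± 0.15, edgeR adjusted p = 0.0121) in Th17 than Th1, and Tfh over Th1 gave a log2 fold change of 0.00 ± 0.15. The call of P4ha1 between Tfh and Th17 was lost when any of 5 libraries was left out (Th17 replicates 2 and 3 and Tfh replicates 3, 4 and 5, edgeR adjusted p up to 0.0870), and that between Th17 and Th1 when any of 3 was (Th1 replicates 4 and 5 and Th17 replicate 3, edgeR adjusted p up to 0.0549). The log2 ratio of P4ha2 to P4ha1 was -5.70, -8.95, -5.86, -6.16 and -4.85 in Tfh, -2.95, -3.0, -3.27, -3.07 and -3.36 in Th17, and -2.82, -2.84, -2.45, -2.72 and -2.82 in Th1. It was lower in Tfh without overlap, with a difference of -3.17 (exact permutation p = 0.00794, adjusted p = 0.0175) from Th17 and -3.57 (exact permutation p = 0.00794, adjusted p = 0.0175) from Th1.

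Vegfa, Ero1l and Ndrg1 separated all 3 conditions, lowest in Tfh and highest in Th1. Vegfa, the vascular endothelial growth factor, had 7.15, 10.7, 4.98, 11.3 and 10.9 CPM in Tfh. In Th17 it had 24.7, 43.8, 33.99, 35.6 and 31.2 CPM, and in Th1 111, 94.97, 88.3, 94.2 and 87.7 CPM. It was 3.75-fold lower (log2 fold change -1.91 ± 0.21, edgeR adjusted p = 6.72e-06) in Tfh than Th17, 10.5-fold lower (log2 fold change -3.40 ± 0.22, edgeR adjusted p = 3.5e-10) in Tfh than Th1 and 2.81-fold lower (log2 fold change -1.49 ± 0.20, edgeR adjusted p = 8.79e-06) in Th17 than Th1. Ero1l, the oxidase that restores protein disulfide isomerase in the endoplasmic reticulum, had 41.6, 82.4, 57.8, 40.8 and 52.9 CPM in Tfh. The Th17 libraries held 159.9, 178, 137, 91.03 and 107 CPM and the Th1 libraries 726, 632, 317, 309 and 426 CPM. None of its libraries overlapped between conditions, and Th1 spanned more than any other. It was 2.44-fold lower (log2 fold change -1.29 ± 0.26, edgeR adjusted p = 0.00193) in Tfh than Th17, 8.75-fold lower (log2 fold change -3.13 ± 0.28, edgeR adjusted p = 2.84e-08) in Tfh than Th1 and 3.58-fold lower (log2 fold change -1.84 ± 0.26, edgeR adjusted p = 1.85e-05) in Th17 than Th1. Ndrg1, a stress-induced gene used as a marker of hypoxia, had 10.2, 19.9, 12.6, 12.1 and 10.3 CPM in Tfh. Levels were 55.3, 115, 60.5, 72.9 and 60.9 CPM in Th17 and 125, 204, 210.4, 171 and 132 CPM in Th1. It had the largest fold of any member against Th1, 12.9-fold lower (log2 fold change -3.69 ± 0.25, edgeR adjusted p = 7.79e-10) in Tfh, and was 5.6002-fold lower (log2 fold change -2.49 ± 0.24, edgeR adjusted p = 1.75e-06) in Tfh than Th17 and 2.31-fold lower (log2 fold change -1.21 ± 0.22, edgeR adjusted p = 0.000323) in Th17 than Th1.

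Bnip3 took another order. It encodes a mitochondrial protein of mitophagy and had 23.2, 50.99, 36.9, 42.997 and 18.97 CPM in Tfh. The 5 Th17 libraries had 106, 158, 128, 159.5 and 166 CPM, and the 5 Th1 libraries 69.8, 93.4, 90.7, 92.8 and 62.6 CPM. Th17 libraries were the highest and Tfh libraries the lowest, without overlap. Bnip3 was 4.14-fold lower (log2 fold change -2.05 ± 0.23, edgeR adjusted p = 9.05e-06) in Tfh than Th17, 2.36-fold lower (log2 fold change -1.24 ± 0.23, edgeR adjusted p = 0.000199) in Tfh than Th1 and 1.75-fold higher (log2 fold change 0.81 ± 0.23, edgeR adjusted p = 0.00828) in Th17 than Th1. Ankrd37 averaged 8.57 ± 3.52 CPM in Tfh, 24.3 ± 3.71 CPM in Th17 and 19.4 ± 3.12 CPM in Th1, and was 2.79-fold lower (log2 fold change -1.48 ± 0.28, edgeR adjusted p = 0.000996) in Tfh than Th17 and 2.23-fold lower (log2 fold change -1.16 ± 0.27, edgeR adjusted p = 0.00186) in Tfh than Th1. Higd1a, of the mitochondrial inner membrane, averaged 16.8 ± 7.27 CPM in Tfh, 47.2 ± 15.7 CPM in Th17 and 33.1 ± 6.11 CPM in Th1, and was 2.79-fold lower (log2 fold change -1.48 ± 0.29, edgeR adjusted p = 0.00139) in Tfh than Th17 and 1.956-fold lower (log2 fold change -0.97 ± 0.29, edgeR adjusted p = 0.00898) in Tfh than Th1. Mif, a cytokine, averaged 94.3 ± 17.7 CPM in Tfh, 232 ± 51.3 CPM in Th17 and 324 ± 127 CPM in Th1, and was 2.46-fold lower (log2 fold change -1.30 ± 0.23, edgeR adjusted p = 0.000641) in Tfh than Th17 and 3.43-fold lower (log2 fold change -1.78 ± 0.23, edgeR adjusted p = 4.07e-06) in Tfh than Th1. None of these 3 was called between Th17 and Th1, though Mif was called lower in Th17 without Th1 replicate 1 (adjusted p = 0.0221) or Th17 replicate 4 (adjusted p = 0.03285).

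**Figure D3:**
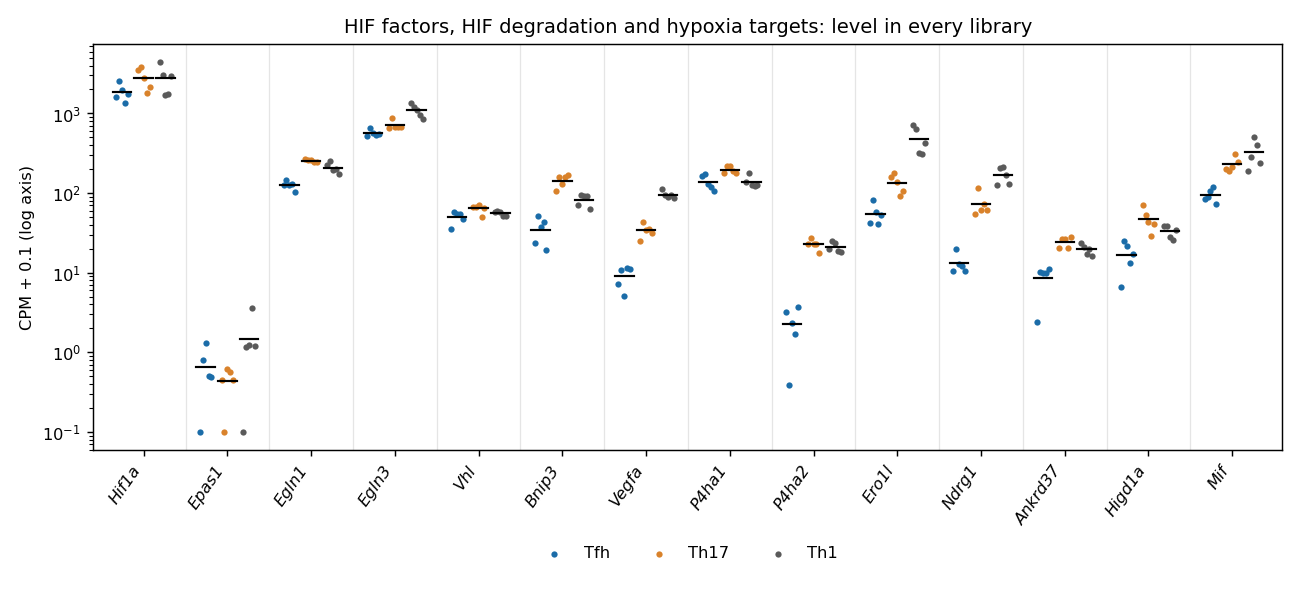
Levels of the HIF factors, HIF degradation genes and hypoxia targets as CPM + 0.1 on a log axis, with a point for each of 5 libraries of Tfh, Th17 and Th1 from left to right and a black bar at the mean. Tfh sits below both other conditions for P4ha2 (2.17 ± 1.32 CPM in Tfh, 22.6 ± 3.54 CPM in Th17 and 20.8 ± 2.99 CPM in Th1), and the 3 conditions overlap for Hif1a.

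Sorted by their calls in the fit to all libraries, 15 members were lower in Tfh than in both others with no call between Th17 and Th1, among them Slc2a1, Aldoa, Tpi1, Pkm and P4ha2. Another 7 were lower in Tfh than Th17 and in Th17 than Th1 as well (Slc2a3, Hk2, Pfkp, Aldoc, Vegfa, Ero1l and Ndrg1). A group of 3 was lowest in Tfh and highest in Th17 (Ldha, Slc16a3 and Bnip3). Hk1, Gpi1 and Pgam1 were called lower in Tfh than Th1 only, and Pfkm and Egln3 were lower than Th1 in both Tfh and Th17. The 5 members called in no comparison were Pfkfb4, Pdk2, Hif1a, Epas1 and Vhl.

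**Figure D4:**
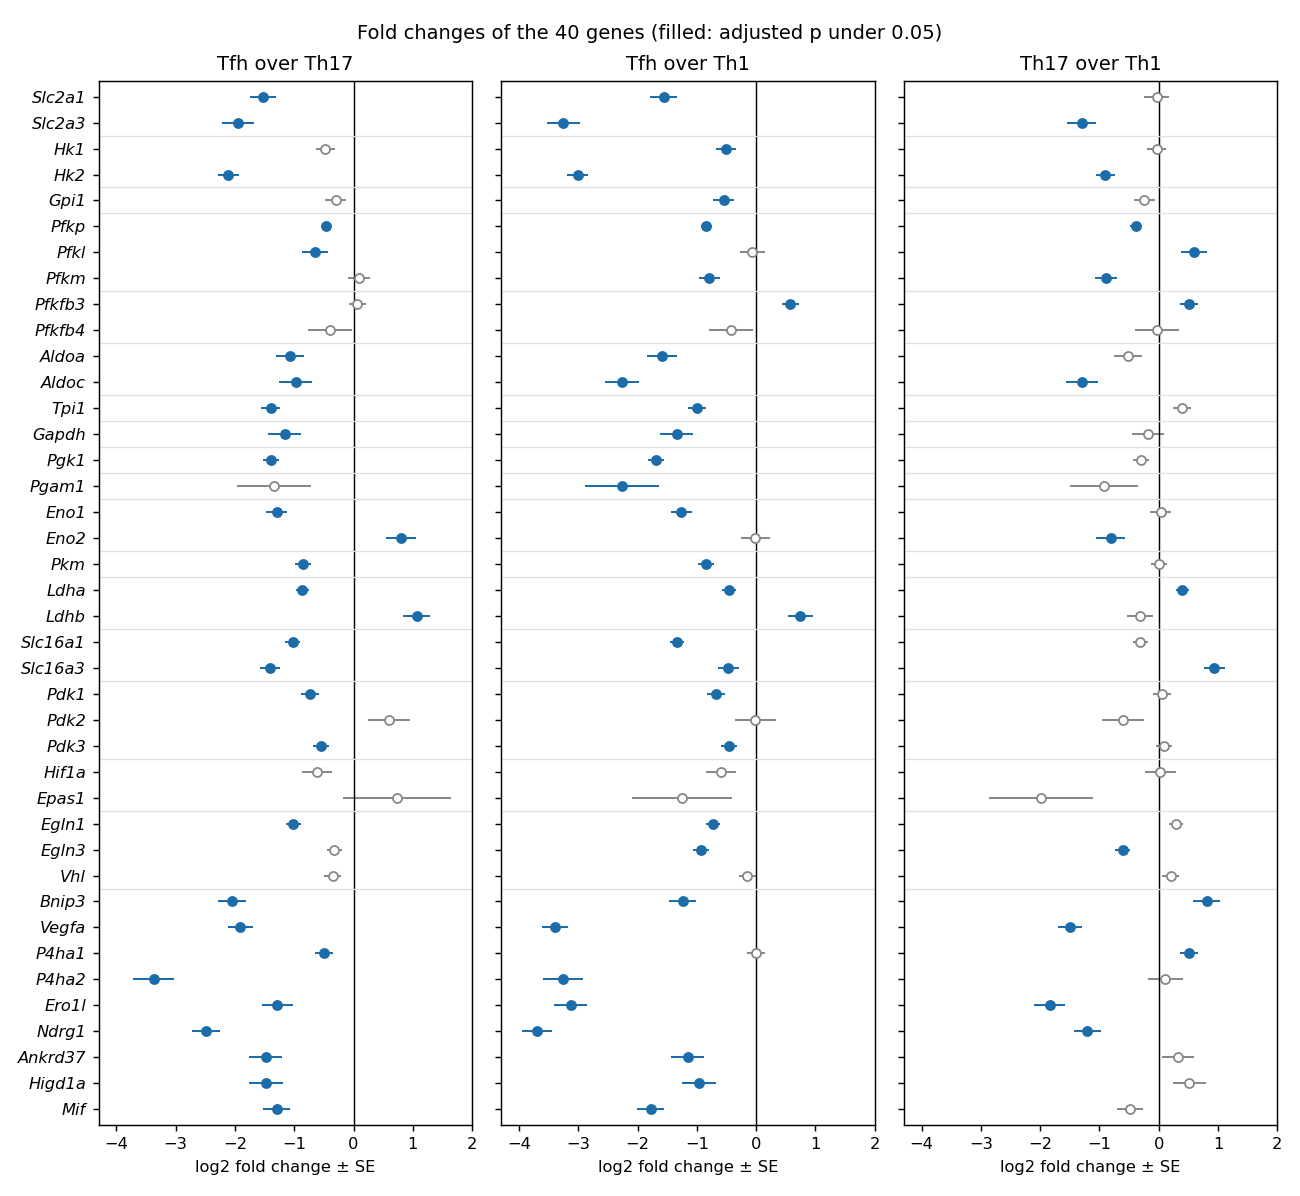
Log2 fold changes ± SE of the 40 members for Tfh over Th17, Tfh over Th1 and Th17 over Th1, filled where the edgeR adjusted p is under 0.05. Most filled points lie below 0 in the comparisons of Tfh (27 of 40 against Th17 and 30 of 40 against Th1), and those of Th17 over Th1 fall on both sides (10 lower and 6 higher).

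Libraries of a condition differed along the GC content of transcripts. Across 11528 genes, the Spearman correlation between transcript GC and a library's deviation from its condition's mean ran from -0.66 in Th1 replicate 1 to 0.71 in Th17 replicate 4 and Th1 replicate 4, a description over genes that share a library. A pair of members, picked after their values were seen, moved along with it. Aldoa (57.9% GC) had 5817 and 5027 CPM in Th1 replicates 3 and 4 and 2137 CPM in Th1 replicate 1, while Hif1a (42.4% GC) had 1723 and 1765 CPM in replicates 3 and 4 and 4373 CPM in replicate 1. Slc16a1 (42.9% GC), in contrast, had 119.8 and 127 CPM in Th1 replicates 3 and 4 and 119.98 CPM in Th1 replicate 1. The fold changes had Spearman correlations with GC of 0.04 for Tfh over Th17, -0.02 for Tfh over Th1 and -0.05 for Th17 over Th1 over the same genes.

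Genes next to the pathway were read from lists of the same kind. Basigin, the chaperone of both lactate carriers, is encoded by Bsg and averaged 238 ± 41.8 CPM in Tfh, 482 ± 22.5 CPM in Th17 and 536 ± 28.05 CPM in Th1. It was 2.03-fold lower (log2 fold change -1.02 ± 0.12, edgeR adjusted p = 7.9e-06) in Tfh than Th17 and 2.25-fold lower (log2 fold change -1.17 ± 0.12, edgeR adjusted p = 1.19e-07) in Tfh than Th1. Emb, the gene of the related chaperone embigin, had the other pattern, with 772 ± 185 CPM in Tfh, 877 ± 200.4 CPM in Th17 and 285 ± 63.6 CPM in Th1, and was 2.71-fold higher (log2 fold change 1.44 ± 0.19, edgeR adjusted p = 5.28e-06) in Tfh than Th1. In the pentose phosphate pathway, which branches off after hexokinase, 2 of 8 genes were lower in Tfh than Th17 and 2 of 8 lower in Tfh than Th1, the second a share equal to that of all genes. Tkt, the transketolase, was 1.77-fold lower (log2 fold change -0.83 ± 0.19, edgeR adjusted p = 0.0057) in Tfh than Th17 and 2.67-fold lower (log2 fold change -1.42 ± 0.19, edgeR adjusted p = 7.36e-06) in Tfh than Th1. Of 11 genes of glycogen and gluconeogenesis, 4 were lower in Tfh than Th17 and 8 lower in Tfh than Th1, and none was higher. Of all genes, 9.98% were called lower and 6.80% higher against Th17, and 25.2% lower and 24.1% higher against Th1. Pck2, the mitochondrial enzyme that makes phosphoenolpyruvate, averaged 11.3 ± 4.17 CPM in Tfh, 14.4 ± 2.52 CPM in Th17 and 126 ± 30.03 CPM in Th1, with a level 11.2-fold lower (log2 fold change -3.49 ± 0.25, edgeR adjusted p = 1.62e-09) in Tfh than Th1.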

How the data were processed

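Messenger RNA was measured in 15 libraries of sorted mouse CD4 T cells, 5 each labelled Tfh, Th17 and Th1. The authors deposited raw read counts per gene. The tools were STAR 2.7.2b (mm10) and featureCounts 1.6.4, per the submitters' processing notes. Annotation, strand setting and multiple matches were not stated in the sources used here. The table lists 27179 genes by Entrez ID, of which 25275, with 98.2% of all counts, were named from RefSeq on GRCm38.p6, and the 15 single-sample files held the same counts. The lowest chi-square per gene between libraries of a condition was 9.80, so none agreed within counting noise.

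In R 4.3.3, edgeR 4.0.16 filtered low counts with its default on the 3 conditions, scaled libraries with TMM and fitted 1 quasi-likelihood model without covariates to all 15 libraries. Calls were made at an adjusted p under 0.05 (Benjamini-Hochberg, 12591 genes). After a log2 fold change, ± is its standard error. Levels per kb use exon lengths from GENCODE M21. Isozyme ratios are log2 of counts plus 0.5. Alternatives were RLE factors, library sizes alone, DESeq2 1.42.0, limma-voom (limma 3.58.1), other filters, a replicate block, fits to the 10 libraries compared, and leaving out each library. The set without members that share sequence was added after seeing the data. The edgeR fit and the permutation test were tested on simulated data. A floor of 3 counts covers counting error only. The members and all gene lists were chosen with earlier results of these data known. All members are named, and from other lists up to 2 genes per direction and comparison with the largest called fold, no overlap of libraries and a mean of at least 10 CPM in the higher condition. A few genes that this rule or the marker lists hold are not reported here.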

Additional observations from a re-analysis of the deposited data

Results flagged for a closer look

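In 8 of 120 groups of 5 libraries (40 members in 3 conditions), 1 library lay apart from the other 4 by more than Dixon's 95% limit of 0.71 of the range. Chance alone flags about 1 in 20 groups, so the number is close to that rate. In Tfh, replicate 1 had the highest Pfkl level, 113 CPM, with the other 4 between 46.2 and 61.5 CPM, and the lowest Ankrd37 level, 2.32 CPM, with the others between 9.80 and 10.9 CPM. Tfh replicate 1 is also the shallowest library. Aldoa was highest in Tfh replicate 4 at 1747 CPM, with the others between 1092 and 1232 CPM, and Ndrg1 was highest in Tfh replicate 2 at 19.9 CPM, with the others between 10.2 and 12.6 CPM. In Th17, replicate 4 had the highest Hk1 level, 257 CPM, with the others between 170.0 and 179.5 CPM, and the lowest Vhl level, 50.1 CPM, with the others between 65.7 and 70.5 CPM. Egln3 was highest in Th17 replicate 2 at 883 CPM, with the others between 664 and 684 CPM. In Th1, Pfkp was highest in replicate 2 at 420.4 CPM, with the others between 362 and 376 CPM.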

How the results depend on the processing

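Of 120 member comparisons, 77 were called. None of the 77 reversed under the alternatives run, and 7 lost their call under at least 1 of them (Pfkl and P4ha1 in 2 comparisons each, and Slc16a3, Eno2 and Aldoc in 1 each). Of the 43 uncalled, 12 gained a call under at least 1 alternative, 10 of them without some library. For Tfh over Th1 this was Hif1a, for Tfh over Th17 Hif1a, Hk1, Pgam1 and Egln3 (Egln3 with the replicate block alone, adjusted p = 0.0346), and for Th17 over Th1 Aldoa, Tpi1, Pgk1, Slc16a1, Egln1, Epas1 and Mif. RLE factors, DESeq2 and the strict filter each called Pgk1 and Slc16a1 lower in Th17 than Th1, library sizes alone and limma-voom each called Tpi1 and Egln1 higher, limma-voom called Slc16a1 lower, and DESeq2 and the fit to 2 conditions called Hk1 lower in Tfh than Th17. With libraries left out in turn, members lower numbered 24 to 28 for Tfh over Th17, 29 to 31 for Tfh over Th1 and 10 to 14 for Th17 over Th1, and members higher numbered 1 to 2, 2 to 2 and 4 to 7. The median member log2 fold change ran from -1.04 to -0.87, from -1.01 to -0.89 and from -0.25 to -0.058, and isozyme ratios called from 5 to 8, from 7 to 10 and from 8 to 10, with 8 for Tfh over Th17 when Tfh replicate 2 was left out. Members higher for Tfh over Th17 numbered 1 with limma-voom and 1 without members that share sequence, and for Tfh over Th1 1 without those members. The median was -0.80 for Tfh over Th17 without those members. For Th17 over Th1 it was -0.17 with RLE factors and with DESeq2, -0.033 in the fit to the 2 conditions alone and -0.033 without members that share sequence.

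Sign changes were limited to uncalled values near 0. P4ha1 for Tfh over Th1 was -0.032 with RLE factors, -0.032 with DESeq2, -0.034 with the strict filter, -0.019 with limma-voom, -0.016 in the fit to 2 conditions, -0.0089 without a filter and -0.0053 with the replicate block. For Th17 over Th1 with RLE factors, DESeq2 and the strict filter in turn, Eno1 was -0.028, -0.028 and -0.026, Pkm was -0.057, -0.057 and -0.055, Pdk1 was -0.0051, -0.0049 and -0.0037, and Hif1a was -0.039, -0.039 and -0.038. With library sizes alone, Pfkl, Eno2 and Pdk2 were 0.0101, 0.0599 and 0.063 for Tfh over Th1, and Pfkfb4 was 0.0069 for Th17 over Th1. Pdk2 was 0.00086 for Tfh over Th1 with limma-voom. With the replicate block, Slc2a1 was 0.015 and Pfkfb4 0.00077 for Th17 over Th1. Leaving out libraries gave, for Th17 over Th1, -0.089 to 0.12 for Eno1, -0.15 to 0.26 for Hif1a, -0.197 to 0.025 for Hk1, -0.021 to 0.088 for Pdk1, -0.0095 to 0.16 for Pdk3, -0.21 to 0.038 for Pfkfb4, -0.11 to 0.049 for Pkm and -0.16 to 0.085 for Slc2a1, and for Tfh over Th1, -0.14 to 0.13 for Eno2, -0.11 to 0.102 for P4ha1, -0.21 to 0.22 for Pdk2 and -0.34 to 0.0204 for Pfkl.

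The replicate numbers were not taken as pairs, since 7 of 15 same-numbered pairs, not all, had correlated deviations above 0.1 (from -0.10 to 0.57). All pairs of replicate 4 (0.44 to 0.57) and of replicate 2 (0.13 to 0.23) were above it, and 13 of 30 checks matched a library best with its own number, a hint from the data and not from the labels. Correlations with transcript GC in Tfh, Th17 and Th1 were 0.57, 0.71 and 0.71 for replicate 4 and -0.46, -0.49 and -0.32 for replicate 2. Their signs were mixed in replicates 1, 3 and 5. Whether the shared deviations stem from pairing or go with GC content was not tested. With the replicate block, 2941 genes were called for Tfh over Th17, 6923 for Tfh over Th1 and 5487 for Th17 over Th1, against 2113, 6206 and 4642 without it, and members lower numbered 30, 31 and 14. It called Hif1a lower in Tfh than in Th17 (adjusted p = 0.0169) and Th1 (adjusted p = 0.01100), and also Hk1 for Tfh over Th17 and Aldoa, Tpi1, Pgk1, Slc16a1, Egln1 and Mif for Th17 over Th1. Depth limits Epas1 and Pgam1, which held 28 and 45 counts over all Tfh libraries.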

Other observations

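The counts of the lists below stand beside those of all genes tested, of which 9.98% were called lower and 6.80% higher in Tfh than Th17, 25.2% lower and 24.1% higher in Tfh than Th1, and 17.8% lower and 19.0% higher in Th17 than Th1. Other genes of the hypoxia response were called in both directions. Of 36 tested, 17 were lower and 1 higher in Tfh than Th17, 20 lower and 7 higher in Tfh than Th1, and 11 lower and 6 higher in Th17 than Th1, with medians of -0.52, -0.85 and -0.15 on the log2 scale. Some of these genes also stand in the lists of glycogen and gluconeogenesis or of other glycolytic isozymes, and are counted in each. Stc2, a secreted stanniocalcin, held 11 counts over the 5 Tfh libraries, 38 over the Th17 and 1871 over the Th1 libraries, and was called lower in Tfh than Th1 (edgeR adjusted p = 4.05e-08), with no fold given at so few Tfh counts. In the opposite direction, Plin2, which coats lipid droplets, averaged 128 ± 15.02 CPM in Tfh, 114 ± 20.8 CPM in Th17 and 25.03 ± 6.13 CPM in Th1, and was 5.09-fold higher (log2 fold change 2.35 ± 0.18, edgeR adjusted p = 3.12e-09) in Tfh than Th1. Plod2, a collagen lysyl hydroxylase, averaged 293 ± 50.3 CPM in Tfh, 362 ± 78.1 CPM in Th17 and 75.1 ± 24.3 CPM in Th1, and was 4.83-fold higher (log2 fold change 2.27 ± 0.21, edgeR adjusted p = 1.07e-07) in Th17 than Th1. Hif1an, the asparagine hydroxylase that blunts HIF, averaged 42.95 ± 8.17 CPM in Tfh, 28.1 ± 5.69 CPM in Th17 and 25.3 ± 3.97 CPM in Th1, and was 1.52-fold higher (log2 fold change 0.61 ± 0.18, edgeR adjusted p = 0.0233) in Tfh than Th17.

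Of 22 tested regulators known to steer glycolysis in T cells, 3 were higher and 2 lower in Tfh than Th17, and 8 were higher and 3 lower in Tfh than Th1. The 2 lower against Th17 are a share close to the 9.98% of all genes, and the 3 lower against Th1 a share under the 25.2% of all genes. The 3 higher against Th17 and the 8 higher against Th1 are shares above the 6.80% and 24.1% of all genes. The median log2 fold change of the 22 was 0.06 for Tfh over Th17 and 0.23 for Tfh over Th1. Myc, which drives glycolytic genes after activation, averaged 181 ± 30.9 CPM in Tfh, 377 ± 29.6 CPM in Th17 and 575 ± 109 CPM in Th1. It was 2.09-fold lower (log2 fold change -1.06 ± 0.14, edgeR adjusted p = 5.29e-05) in Tfh than Th17, 3.18-fold lower (log2 fold change -1.67 ± 0.15, edgeR adjusted p = 2.49e-08) in Tfh than Th1 and 1.52-fold lower (log2 fold change -0.61 ± 0.14, edgeR adjusted p = 0.00239) in Th17 than Th1. Txnip, which curbs glucose uptake, ran the other way, with 335 ± 53.97 CPM in Tfh, 180.0 ± 27.3 CPM in Th17 and 89.8 ± 27.1 CPM in Th1. It was 1.86-fold higher (log2 fold change 0.90 ± 0.18, edgeR adjusted p = 0.00178) in Tfh than Th17 and 3.73-fold higher (log2 fold change 1.90 ± 0.18, edgeR adjusted p = 1.02e-07) in Tfh than Th1. Foxo1, a factor of quiescence, averaged 649.5 ± 25.6 CPM in Tfh, 452 ± 36.4 CPM in Th17 and 152 ± 12.8 CPM in Th1, and was 4.29-fold higher (log2 fold change 2.10 ± 0.10, edgeR adjusted p = 7.62e-12) in Tfh than Th1.

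Of 12 tested genes of other glycolytic isozymes and kinases, 2 were higher and 2 lower in Tfh than Th17, and 3 higher and 5 lower in Tfh than Th1. Galm, which interconverts the forms of hexoses, averaged 97.8 ± 11.2 CPM in Tfh, 69.3 ± 6.75 CPM in Th17 and 31.8 ± 2.27 CPM in Th1, and was 3.08-fold higher (log2 fold change 1.62 ± 0.13, edgeR adjusted p = 5.04e-09) in Tfh than Th1. Eno3, the muscle enolase, averaged 8.52 ± 2.26 CPM in Tfh, 5.57 ± 1.06 CPM in Th17 and 34.1 ± 6.88 CPM in Th1, and was 6.09-fold lower (log2 fold change -2.61 ± 0.23, edgeR adjusted p = 4.45e-08) in Th17 than Th1. Of 10 genes that carry pyruvate into mitochondrial oxidation, 1 was higher and none lower in Tfh than Th17, and 1 was higher and 2 lower in Tfh than Th1, where the shares lie under the 24.1% and 25.2% of all genes. Pdha1, a subunit of pyruvate dehydrogenase, averaged 145 ± 15.1 CPM in Tfh, 101 ± 5.92 CPM in Th17 and 134 ± 7.59 CPM in Th1, and was 1.44-fold higher (log2 fold change 0.52 ± 0.11, edgeR adjusted p = 0.00227) in Tfh than Th17. Of 11 other genes of the HIF factors and the VHL complex, 1 was higher and 1 lower in Tfh than Th17, and 2 were higher and 2 lower in Tfh than Th1. Of 6 other hexose carriers and partners of the lactate carriers, 2 were lower in Tfh than Th17, and 1 was higher and 2 lower in Tfh than Th1.

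Markers of other cell types summed to less than those of CD4 T cells in every condition. The 7 B cell genes summed to 58.2 to 115 CPM in Tfh, 34.8 to 67.0 CPM in Th17 and 94.3 to 148 CPM in Th1 libraries, with Ms4a1 and Pax5 at 0 in Tfh and Th17 and Pax5 at 0 in Th1. The 12 myeloid and dendritic genes summed to at most 7.35 CPM in Tfh, 6.32 CPM in Th17 and 1.962 CPM in Th1. The 2 CD8 genes summed to 5.22 to 11.3 CPM in Tfh, 6.19 to 16.0 CPM in Th17 and 7.29 to 26.1 CPM in Th1, and the 4 gamma-delta T cell genes to 12.95 to 28.3 CPM in Tfh, 13.7 to 20.3 CPM in Th17 and 26.6 to 49.2 CPM in Th1. The 5 NK cell genes summed to at most 2.07 CPM and the 5 erythroid genes with a name match to at most 0.980 CPM in any library. The part of these cells in the differences was not tested.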
